A study of Mus musculus with 6 samples.

Results

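Chemokine receptors steer Treg cells, suppressive CD4 T cells that depend on Foxp3, into tissues and tumours. The 9 receptor genes described here are Cxcr6, Cxcr3, Cxcr4, Cxcr5, Ccr2, Ccr4, Ccr6, Ccr7 and Ccr8. They were taken by name from the 55450 genes of the deposited table, and each matched 1 row. All 9 passed the filter on low values that 12155 genes of the table passed. Treg cells had been sorted from MC38 tumours, a transplanted mouse colon carcinoma, in C57BL/6 mice. In 3 libraries the Treg cells came from mice whose Treg cells lacked Tim-3 (KO), and in 3 from mice whose Treg cells kept it (WT). Havcr2 encodes Tim-3, an inhibitory receptor of T cells and myeloid cells. How Tim-3 was removed, the age of the mice and whether libraries came from separate mice are not given in the sources used here, so the spread that p-values measure is one between libraries and may be partly technical.

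A chemokine receptor is a G protein-coupled receptor that moves a cell towards a source of its ligand. CXCR6 binds CXCL16, a membrane-bound chemokine of myeloid cells, and is carried by T cells that reside in tissues. CCR8 binds CCL1 and is a surface marker of Treg cells inside tumours, whereas CCR4 binds CCL17 and CCL22 and is found on activated Treg cells. CXCR3 binds the interferon-induced chemokines CXCL9, CXCL10 and CXCL11, CCR2 the inflammatory chemokines CCL2, CCL7 and CCL12, and CCR6 CCL20. CCR7 leads cells to lymph nodes along CCL19 and CCL21, CXCR5 to B cell follicles along CXCL13, and CXCR4 along CXCL12.

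Values are given per library as transcripts per 1000000 (TPM), a length-corrected share of all transcripts, or as log2(TPM + 1). Libraries are named KO C1, KO D, KO dated, WT A1, WT B1 and WT dated after marks in their column names, and 1 library of each group carried a calendar date. Each library had 11470 to 12681 genes at 1 TPM or more, and read depth is unknown because TPM keeps no counts. Pearson's r for pairs of libraries, computed over tested genes, ran from 0.918 to 0.970, and the 2 dated libraries had 0.966. KO dated had a summed 0.01 TPM of 4 Y-linked genes, against 140 to 186 TPM in the other 5 libraries, and Xist stood at 3.03 TPM in KO dated and at 0.02 TPM or less in the others. The sex of the mice is not given in the sources used here. Havcr2 (chromosome 11, 46454935 to 46481255, plus strand) had log2 values of 3.54, 4.27 and 2.55 in KO C1, KO D and KO dated, against 5.70, 5.64 and 4.49 in WT A1, WT B1 and WT dated. Its groups did not overlap, but it did not pass over all genes (limma adjusted p = 0.211), and with the date mark as a block it passed (0.0148). Which exons were deleted is not given in the sources used here, so this level does not measure how complete the deletion was.

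Cxcr6 was lower in KO Treg cells, and it was the 1 receptor of the 9 that passed the test over all genes. Over all tested genes, 0.206% were called at an adjusted p under 0.05, and 0.074% were called lower. Cxcr6 (ENSMUSG00000048521.8, chromosome 9, 123806475 to 123811760, plus strand) had 225, 305 and 248 TPM in KO C1, KO D and KO dated, against 920, 803 and 705 TPM in WT A1, WT B1 and WT dated. Every KO library lay below every WT library, and the highest KO value was below the lowest WT value by more than the range within either group. On the log2(TPM + 1) scale the means were 8.01 ± 0.23 in KO and 9.65 ± 0.19 in WT libraries (SD, n = 3 each). The difference was -1.64 with a standard error of 0.17 and a 95% interval of -2.03 to -1.26, a level 3.12-fold lower in KO libraries (limma adjusted p = 0.0221). It was -1.71 among the 4 undated libraries and -1.51 between the dated ones, and the fit with the date block gave an adjusted p of 0.00731. The call rested on the libraries used: the adjusted p was 0.136 without WT A1, 0.127 without WT B1 and 0.0784 without KO D, with differences of -1.55, -1.64 and -1.77. Without WT A1, WT B1, WT dated, KO C1, KO D or KO dated in turn, the receptor called was Cxcr6 or none, where 0.0165%, 0%, 0.197%, 0.0905%, 0% and 0.995% of all tested genes were called. Cxcr6 was not called without the filter on low values (0.00388% of genes called), without a variance trend (0.0329%) or at a threshold of 0.01 (0.00823%). With library weights 4 receptors were called, Cxcr6, Ccr8, Cxcr3 and Cxcr4 (7.81% of genes), and without both dated libraries Cxcr6 and Ccr8 (1.77%).

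The 250 bases before the RefSeq start (GRCm38.p6) are shown for 4 receptors, as the DNA next to that start. They are the 2 genes with the lowest KO levels relative to WT, Cxcr6 and Ccr8, and 2 whose KO values all lay above the WT values, Cxcr3 and Cxcr4. The KO values of Ccr4 also all lay above the WT values, and its window is not shown. Capitals mark the motifs found, each searched on both strands, the Cxcr4 window held none, and no motif overlapped another in these windows.
Cxcr6 promoter (chr9:123806227-123806476, + strand): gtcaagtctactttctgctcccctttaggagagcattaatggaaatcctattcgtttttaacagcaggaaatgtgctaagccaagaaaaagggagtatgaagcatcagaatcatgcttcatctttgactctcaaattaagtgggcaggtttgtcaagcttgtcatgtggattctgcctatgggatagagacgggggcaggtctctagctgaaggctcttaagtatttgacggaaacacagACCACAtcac
Ccr8 promoter (chr9:120091883-120092132, + strand): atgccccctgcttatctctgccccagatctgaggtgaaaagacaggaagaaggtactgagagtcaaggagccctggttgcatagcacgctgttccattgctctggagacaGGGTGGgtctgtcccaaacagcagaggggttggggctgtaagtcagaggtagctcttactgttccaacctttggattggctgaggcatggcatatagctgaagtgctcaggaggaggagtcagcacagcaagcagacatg
Cxcr3 promoter (chrX:101734148-101734397, - strand): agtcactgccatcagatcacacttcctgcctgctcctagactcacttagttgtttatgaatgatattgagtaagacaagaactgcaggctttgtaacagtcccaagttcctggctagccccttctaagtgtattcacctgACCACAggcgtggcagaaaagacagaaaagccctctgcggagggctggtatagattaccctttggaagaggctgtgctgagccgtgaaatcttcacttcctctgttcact
Cxcr4 promoter (chr1:128592300-128592549, - strand): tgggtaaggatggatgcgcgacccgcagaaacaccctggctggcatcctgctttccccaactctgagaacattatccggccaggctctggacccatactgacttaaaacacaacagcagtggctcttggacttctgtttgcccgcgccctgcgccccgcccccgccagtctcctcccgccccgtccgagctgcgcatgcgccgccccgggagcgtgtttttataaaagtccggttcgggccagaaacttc
The Cxcr6 window, close to its start, and the Cxcr3 window hold the RUNX-type hexamer TGTGGT, in both read on the opposite strand. Gene coordinates in this report come from GENCODE, and its starts differ from those of RefSeq. The Cxcr3 window runs into the GENCODE span of the gene, which ends at 101734269, and its hexamer lies inside that span. The Ccr8 and Cxcr6 windows end past the GENCODE starts at 120092114 and 123806475. The hexamer is present in 14% of 32851 promoter windows of the same length. The Ccr8 window holds the KLF-type hexamer CCACCC on the opposite strand, which is present in 28.1% of windows. No match to the AP-1 letters TGANTCA (6.75% of windows), the T-box letters GGTGTGA (3.33%) or the NFAT-type letters GGAAAA (20.4%) lies in these 4 windows. RefSeq windows matched 7 of the 9 receptors, all but Cxcr5 and Ccr7, and 2 of their 8 windows hold TGTGGT. Of the same 8 windows, 1 holds CCACCC (Ccr8), 1 the AP-1 letters (Ccr4), 1 the NFAT-type letters (Ccr2) and 0 the T-box letters. A match describes letters only and is no evidence of binding.

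Ccr8 had the difference next in size to that of Cxcr6 among the 9, and it did not pass over all genes, but did with the date mark as a block, with library weights and without both dated libraries. Ccr8 (chromosome 9, 120092114 to 120094906, plus strand) had 302, 422 and 202 TPM in KO C1, KO D and KO dated, against 865, 688 and 419 TPM in WT A1, WT B1 and WT dated. KO D lay just above WT dated, so the groups overlapped, while within each date class the KO values lay below the WT values. The log2 difference was -1.09 with a standard error of 0.33 (limma adjusted p = 0.252). Undated libraries gave -1.11 and the dated pair -1.05. With the date block the standard error was 0.16 and the adjusted p was 0.0241, where 1.97% of all tested genes were called, 0.856% lower and 1.12% higher. Ccl1, a ligand of CCR8, was listed at 0 in KO C1 and KO D and at a log2 value of 0.58 in KO dated, against 3.38, 5.89 and 3.21 in WT A1, WT B1 and WT dated. Its fitted difference of -3.96 did not pass over all genes (limma adjusted p = 0.0822) and passed with the date block (0.0362). Ccl8, also listed as a ligand and named after its values were seen, had a positive difference of 1.71 with overlap (limma adjusted p = 0.578). It stood at 7.76 in KO C1, 3.07 in KO D and 3.26 in KO dated, against 2.62, 3.42 and 2.93 in WT A1, WT B1 and WT dated.

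**Figure D1:**
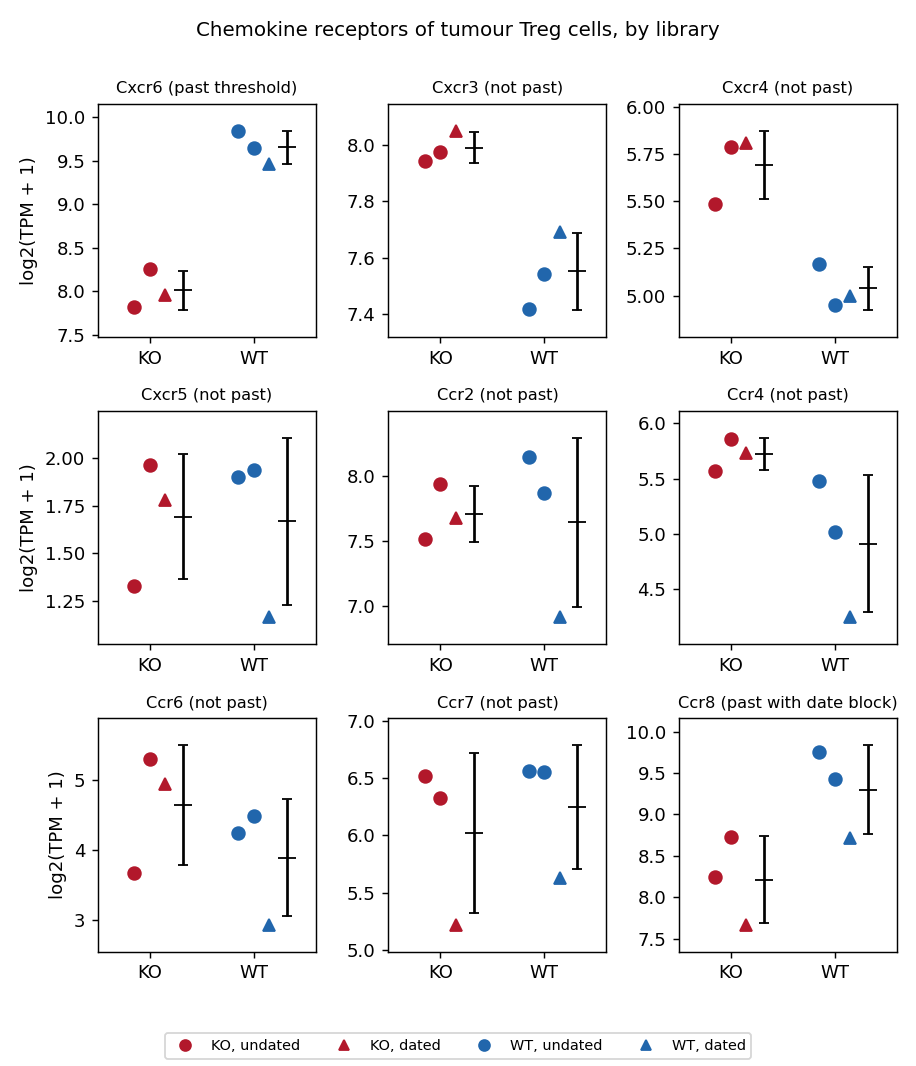
Values of the 9 receptors in log2(TPM + 1), with a point for each library (a triangle where it was dated, a circle otherwise) and a black bar for the mean and SD of 3 libraries; each panel has its own vertical axis, which does not start at 0. Cxcr6 averages 8.01 in KO and 9.65 in WT libraries, and for Cxcr3, Cxcr4 and Ccr4 every KO point lies above every WT point.

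Cxcr4, Cxcr3 and Ccr4 had higher values in every KO library than in every WT library, although none of them passed over all genes. Cxcr4 (chromosome 1, 128588199 to 128592293, minus strand) had 43.8, 54.1 and 55.1 TPM in KO C1, KO D and KO dated, against 35.0, 29.9 and 30.9 TPM in WT A1, WT B1 and WT dated. Its log2 difference was 0.65 ± 0.18 (SE), with a limma adjusted p of 0.214. Cxcr3 (chromosome X, 101731535 to 101734269, minus strand) had 245, 250 and 264 TPM in KO C1, KO D and KO dated, against 170, 186 and 206 TPM in WT A1, WT B1 and WT dated. This was the tightest KO group among the receptors, with an SD of 0.06 on the log2 scale, and its difference was 0.44 ± 0.13 (SE, adjusted p = 0.259). For this X-linked gene it was 0.41 without KO dated, the library without Y-linked transcripts. Ccr4 (chromosome 9, 114490316 to 114504916, minus strand) had 46.5, 57.1 and 52.2 TPM in KO C1, KO D and KO dated, against 43.5, 31.3 and 18.0 TPM in WT A1, WT B1 and WT dated. KO C1 exceeded WT A1 by little, and the difference of 0.81 ± 0.30 (SE, adjusted p = 0.351) split into 0.47 for undated libraries and 1.48 for the dated pair. With the date block the adjusted p was 0.0869 for Cxcr4, 0.0923 for Cxcr3 and 0.135 for Ccr4. Groups did not overlap at 4 of the 9 receptors, where they did not overlap at 17.6% of all tested genes. KO lay above WT at 3, against 10.9% of genes, and below at 1, against 6.73%. At an unadjusted p under 0.05, 2 receptors were lower and 3 were higher, where 4.69% of all tested genes were lower and 6.98% higher.

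At the other 4 receptors the groups overlapped, and no difference passed with or without the date block. In each of them WT dated was the lowest WT library. Ccr2 (chromosome 9, 124101950 to 124113557, plus strand) had 181, 244 and 203 TPM in KO C1, KO D and KO dated, against 283, 232 and 119 TPM in WT A1, WT B1 and WT dated. The WT values both exceeded and fell short of all KO values, and the difference was 0.07 with a 95% interval of -0.64 to 0.77. Undated libraries gave -0.28 and the dated pair 0.77. Ccr6 (chromosome 17, 8236043 to 8257141, plus strand) had 11.7, 38.3 and 30.0 TPM in KO C1, KO D and KO dated, against 18.0, 21.5 and 6.65 TPM in WT A1, WT B1 and WT dated. KO C1 lay below 2 WT libraries, and the difference of 0.75 had an interval of -0.45 to 1.95, split into 0.12 for undated libraries and 2.02 for the dated pair. Ccr7 (chromosome 11, 99144196 to 99155077, minus strand) had 90.5, 79.3 and 36.3 TPM in KO C1, KO D and KO dated, against 93.5, 93.1 and 48.4 TPM in WT A1, WT B1 and WT dated. The dated library was the lowest of its group in both genotypes, and the difference was -0.23 with an interval of -1.12 to 0.66. Cxcr5 (chromosome 9, 44511787 to 44561877, minus strand) had 1.51, 2.91 and 2.44 TPM in KO C1, KO D and KO dated, against 2.74, 2.84 and 1.24 TPM in WT A1, WT B1 and WT dated. It was close to the filter of 1 TPM in all libraries, and its difference was 0.02 with an interval of -0.76 to 0.81.

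Whether the genotype difference changed with the date mark was tested as an interaction in limma with 2 residual degrees of freedom. KO dated was nearly without Y-linked transcripts and WT dated was not. A change with the date mark therefore cannot be told apart from one with the sex of the mice, which is not given. No receptor passed over all genes, where 0.0165% of tested genes did. The interaction had an unadjusted p of 0.0133 for Ccr2 and 0.0352 for Ccr4 (adjusted p = 0.677 and 0.783), and 6.1% of tested genes had an unadjusted p under 0.05. The size of the change was 1.05 ± 0.33 for Ccr2, 1.01 ± 0.40 for Ccr4 and 1.90 ± 0.83 for Ccr6 (SE), against 0.20 ± 0.31 for Cxcr6 and 0.06 ± 0.34 for Ccr8. The difference had opposite signs in the 2 date classes for Ccr2 and Cxcr5, and this held for 38.4% of all tested genes.

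**Figure D2:**
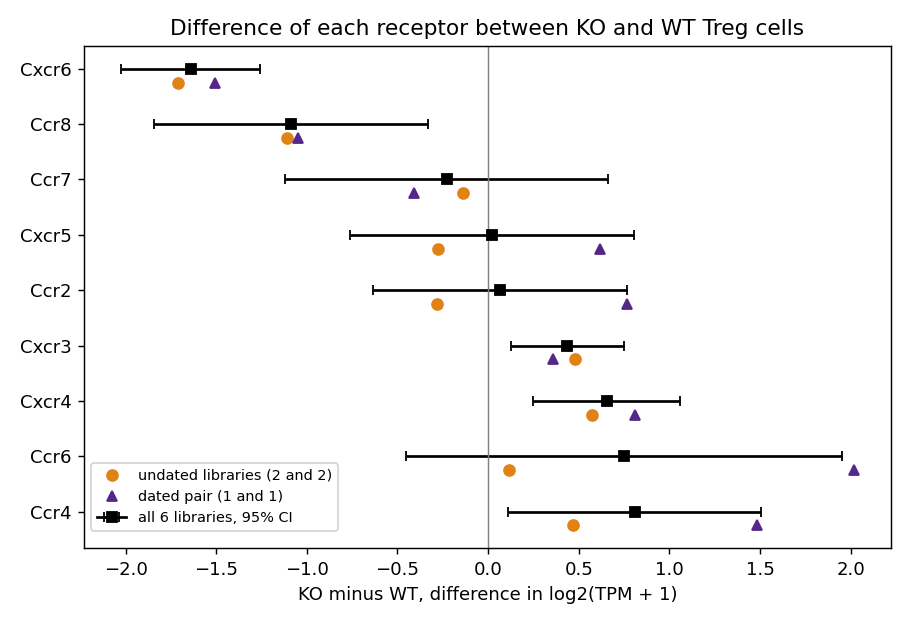
Difference in log2(TPM + 1), KO minus WT, for each receptor, with all 6 libraries as black squares and 95% intervals from limma, the 4 undated libraries as circles and the dated pair as triangles. Cxcr6 and Ccr8 lie below 0 in both date classes, while Ccr2 lies at -0.28 for undated libraries and at 0.77 for the dated pair.

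The order of the receptors by level differed between the groups at the top. In KO libraries Ccr8 (309 ± 110 TPM), Cxcr6 (259 ± 41.5 TPM) and Cxcr3 (253 ± 9.80 TPM) had the highest means, with ranges that overlapped from each to the next (SD, n = 3). Ccr2 (209 ± 31.6 TPM) came next by mean and lay below Cxcr3 in 3 of 3 KO libraries, but its range overlapped those of Ccr8 and Cxcr6, and in KO dated it exceeded Ccr8, at 203 TPM for Ccr2 and 202 TPM for Ccr8. Below Ccr2 lay Ccr7 (68.7 ± 28.6 TPM), Ccr4 (51.9 ± 5.27 TPM) and Cxcr4 (51.0 ± 6.28 TPM), which overlapped, then Ccr6 (26.7 ± 13.6 TPM) and Cxcr5 (2.29 ± 0.71 TPM). In WT libraries Cxcr6 (809 ± 108 TPM) exceeded Ccr8 (657 ± 224 TPM) in 3 of 3 libraries, although the ranges overlapped. Ccr2 (211 ± 83.7 TPM) and Cxcr3 (187 ± 17.8 TPM) overlapped well below them. They were followed by Ccr7 (78.4 ± 25.9 TPM), then by Cxcr4 (31.9 ± 2.66 TPM) and Ccr4 (30.9 ± 12.8 TPM), which overlapped. Ccr6 (15.4 ± 7.75 TPM) overlapped Ccr4 but lay below it in 3 of 3 libraries, and last came Cxcr5 (2.27 ± 0.90 TPM).

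The summed TPM of the 9 receptors was 1147, 1453 and 1093 in KO C1, KO D and KO dated, against 2429, 2088 and 1554 in WT A1, WT B1 and WT dated. Without Cxcr6 and Ccr8 the sums were 620, 726 and 643 TPM in KO libraries, against 645, 597 and 430 TPM in WT libraries, so the lower total lay in these 2 genes. Cxcr6 held 21.1 ± 1.53% of the summed TPM in KO libraries and 40.6 ± 4.17% in WT libraries (SD, n = 3 each). Cxcr3 held 20.9 ± 3.48% in KO and 9.71 ± 3.20% in WT libraries, and Ccr2 held 17.1 ± 1.42% in KO and 10.1 ± 2.16% in WT libraries. A lower Cxcr6 raises the shares of the others by arithmetic. The share of Ccr8 overlapped between the groups, at 24.6 ± 5.47% in KO and 31.8 ± 4.42% in WT libraries. As a ratio chosen after its values were seen, Cxcr6 over Cxcr3 was 0.92, 1.22 and 0.94 in KO C1, KO D and KO dated, against 5.41, 4.33 and 3.43 in WT A1, WT B1 and WT dated. In bulk libraries, fewer cells that carry a receptor and less of its transcript per cell cannot be told apart.

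**Figure D3:**
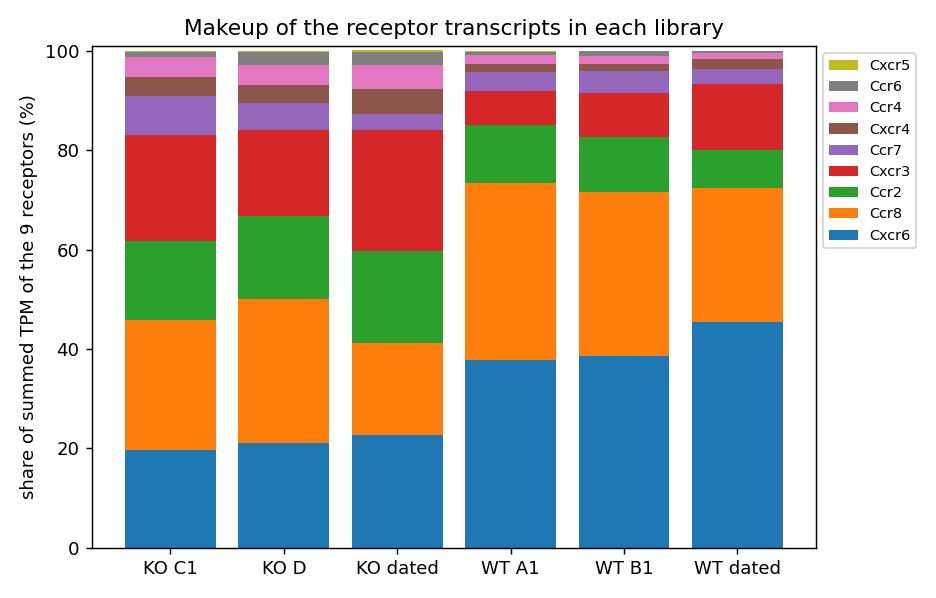
Share of the summed TPM of the 9 receptors held by each receptor, in percent, with 1 bar per library. Cxcr6 takes 19.6 to 22.7% in KO libraries and 37.8 to 45.4% in WT libraries.

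Of the 9 receptors, 5 (Cxcr5, Ccr4, Ccr8, Cxcr6 and Ccr2) lie on chromosome 9. Cxcr6 lies inside the span of Fyco1, a gene of autophagosome transport (chromosome 9, 123789500 to 123851899, minus strand), and none of its 1931 exonic bases is exonic in Fyco1. Fyco1 had log2 values of 3.75, 3.86 and 3.33 in KO C1, KO D and KO dated, against 4.40, 4.20 and 3.19 in WT A1, WT B1 and WT dated, which overlapped (difference -0.28 ± 0.35 SE). Of 18 annotated genes within 250 kb of Cxcr6, 7 were tested in limma. Of these, 0 were called without the date block, where 0.206% of all tested genes were, and 0 with it, where 1.97% were. Among the 7, the chemokine receptor gene Ccr3 had a positive difference of 1.23 and Xcr1 and Ccr1 had negative ones of -0.49 and -0.82. Sacm1l, Lztfl1 and Gm10052 had 0.15, 0.02 and -0.20. Cxcr5 shares 110 of its 3332 exonic bases with Bcl9l on the other strand (difference of Bcl9l -0.11), and no other receptor overlapped an annotated gene. Of the 75-base words in annotated transcripts, the share that also occurs in another gene was 1.16% for Ccr2, 1.11% for Cxcr5 and 0.399% for Ccr4. It was 0 for Cxcr6, Cxcr3, Cxcr4, Ccr6, Ccr7 and Ccr8.

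**Figure D4:**
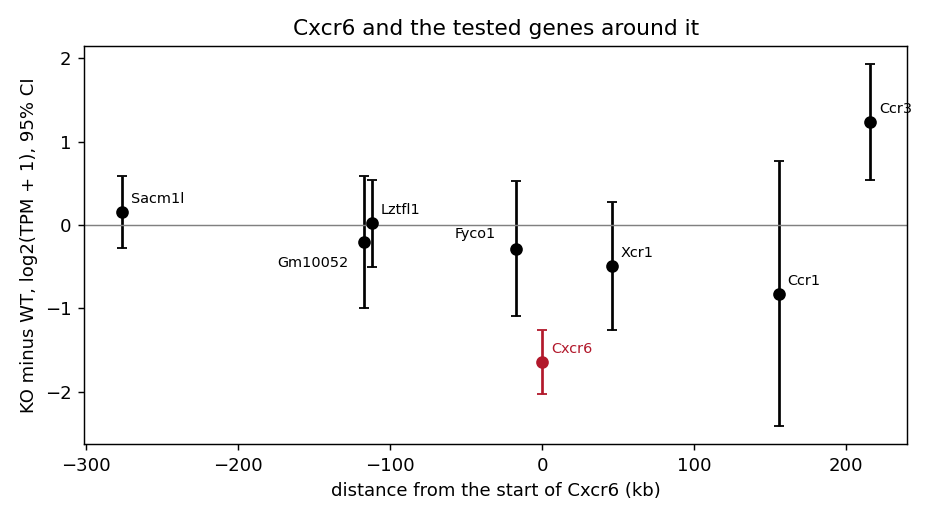
Difference in log2(TPM + 1), KO minus WT, with 95% intervals from limma, of Cxcr6 (red) and the 7 tested genes around it, placed by the distance of their start from that of Cxcr6 in kb. Cxcr6 stands at -1.64, Fyco1, whose span holds Cxcr6, at -0.28 and Ccr3 at 1.23.

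The profile of Cxcr6 over the 6 libraries was closest to those of Lat2, Gm3636 and 2310031A07Rik. Likeness was the root mean square difference between values centred on each gene's own mean, and it was 0.14, 0.16 and 0.16 log2 units for these 3 genes, where Cxcr6 spanned 2.03. Lat2, a membrane adaptor, had 4.67, 4.91 and 4.62 in KO C1, KO D and KO dated, against 6.24, 6.30 and 5.95 in WT A1, WT B1 and WT dated. The genes nearest to Ccr8 were Gm37529, Kctd14 and the macrophage growth factor gene Csf1, at 0.13, 0.14 and 0.15 log2 units. Csf1 had 3.44, 3.89 and 3.11 in KO C1, KO D and KO dated, against 4.92, 4.90 and 4.21 in WT A1, WT B1 and WT dated, and like Ccr8 its dated library was the lowest of each group. Cxcr3 was nearest to 1110019D14Rik, Ctps2 and Card19, Cxcr4 to Crlf3, Casp1 and B3gnt5, Ccr4 to Syt11, Zfp53 and Map3k8, and Ccr2 to Trib2, Clcf1 and Rasgrp1. Ccr7 was nearest to Man2a1, Gm43061 and Gpatch8, and Cxcr5 to Wdr81, Pwwp2b and 1700066B19Rik. Ccr6 had the least close matches, with Tff1, Gm12454 and Dglucy at 0.27 to 0.30 log2 units. These genes were chosen for likeness, so their values are descriptions.

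Among 19 other chemokine and chemotactic receptors, 9 were tested and none passed over all genes, while Gpr15 passed with the date block, where 1.97% of all tested genes were called. At an unadjusted p under 0.05, 3 were higher and 2 lower, where 6.98% of all tested genes were higher and 4.69% lower. Gpr15, a receptor that leads T cells to the large intestine, had log2 values of 4.51, 5.28 and 5.93 in KO C1, KO D and KO dated, against 3.02, 2.19 and 3.36 in WT A1, WT B1 and WT dated. The difference was 2.39 ± 0.43 (SE), with a limma adjusted p of 0.0921 and of 0.0152 with the date block. Ccr3, an eotaxin receptor, and Ltb4r1, a leukotriene B4 receptor, also had every KO value above every WT value, with differences of 1.23 and 1.05. Cx3cr1, the fractalkine receptor, and Ccrl2, a receptor that does not signal to migration, had every KO value below every WT value, at -1.14 and -0.57. Ccrl2 stood at 6.85 in KO dated and 6.90 in WT dated, so its groups were barely apart. Ccr1 had -0.82, Xcr1 -0.49 and Gpr183, which follows oxysterols, 0.14, and all 3 overlapped. The median of the 9 was -0.49, against 0.09 over all tested genes.

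The ligands of the 9 receptors are made in part by other cells, and of 16 listed, 9 were tested and none passed over all genes. At an unadjusted p under 0.05, 2 ligands were higher and 2 lower, against 6.98% and 4.69% of all tested genes. Cxcl10, a ligand of CXCR3, had 7.76, 8.72 and 8.43 in KO C1, KO D and KO dated, against 6.64, 6.73 and 7.50 in WT A1, WT B1 and WT dated. Its difference was 1.35, which passed with the date block (limma adjusted p = 0.046). Of the other listed ligands of CXCR3, named after their values were seen, Cxcl9 had 0.10 with overlap and Cxcl11 was not tested. Ccl2, a ligand of CCR2, had 1.49 without overlap between the groups and did not pass (limma adjusted p = 0.191). The other listed ligands of CCR2, named after their values were seen, did not share this direction. Ccl12 had -1.52 (limma adjusted p = 0.395) and Ccl7 -0.06, both with overlap between the groups. Cxcl16, named after its values were seen because it is the ligand of CXCR6, had 4.74, 1.89 and 0.96 in KO C1, KO D and KO dated, against 1.96, 3.87 and 0.77 in WT A1, WT B1 and WT dated. Its values overlapped, and the 2 highest were in KO C1 and WT B1.

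Genes that carry or stop the receptor signal were tested in 28 of 31 cases, and none passed over all genes. Of the 28, 1 was higher and 2 were lower at an unadjusted p under 0.05, against 6.98% and 4.69% of all tested genes, and the median was 0.03 against 0.09 over all tested genes. Rgs16, which speeds the shutdown of G protein signals, had 4.19, 4.93 and 3.75 in KO C1, KO D and KO dated, against 6.44, 6.07 and 6.05 in WT A1, WT B1 and WT dated. The groups did not overlap, and the difference of -1.89 ± 0.30 (SE) had a limma adjusted p of 0.0691, and of 0.0177 with the date block. Its relatives Rgs10 and Rgs2 had -0.63 and 0.65 and did not pass in either fit. Of 16 transcription factors tied to T cell homing, 14 were tested and none passed over all genes, while 3 were higher and 3 lower at an unadjusted p under 0.05, against 6.98% and 4.69% of all tested genes. Id3, an inhibitor of E proteins, had 1.45 and passed with the date block (0.0252). Klf2, which sustains genes of egress from tissue, and Runx3, a factor of tissue residence, had 1.01 and -0.68 without overlap, and neither passed. The others at an unadjusted p under 0.05, named after their values were seen, passed in neither fit. Tcf7 had 1.64 and Id2 -0.74, both with overlap, and Tbx21 had -0.69 without overlap. Groups did not overlap at 4 of the 14 factors, where they did not overlap at 17.6% of all tested genes.

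**Figure D5:**
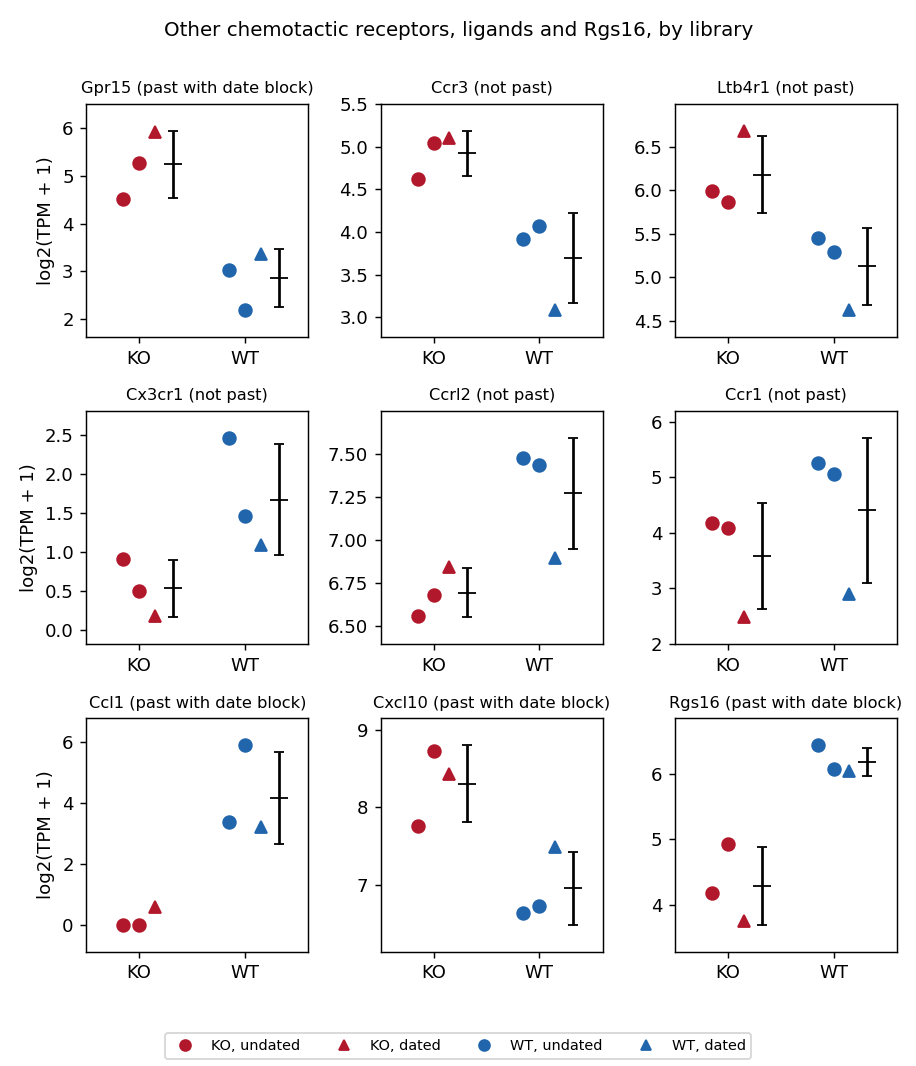
Values in log2(TPM + 1) of 6 other chemotactic receptors, 2 ligands and Rgs16, with a point for each library (a triangle where it was dated, a circle otherwise) and a black bar for the mean and SD of 3 libraries, left out where a library was listed at 0; each panel has its own vertical axis, which does not start at 0. Gpr15 lies between 4.51 and 5.93 in KO and between 2.19 and 3.36 in WT libraries.

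All 8 Treg markers listed were tested and none was called, where 0.206% of all tested genes were. Of the 8, 6 had negative and 2 positive differences, with a median of -0.29 against 0.09 over all tested genes. Il2ra, Tnfrsf18 and Cd3e had the smallest p among them, with differences of -0.67, -0.35 and -0.32, and their groups overlapped except at Cd3e. Foxp3, given as the check of the cell type, had log2 values of 5.56, 5.48 and 5.43 in KO C1, KO D and KO dated, against 5.52, 5.21 and 4.82 in WT A1, WT B1 and WT dated. Markers of macrophages and monocytes, 12 genes of which 7 were tested, summed to 1130, 15.7 and 19.6 TPM in KO C1, KO D and KO dated, against 107, 687 and 22.5 TPM in WT A1, WT B1 and WT dated. The sums were highest in KO C1 and WT B1, and that of WT A1 lay between those and the other libraries. None of these markers was called. The 7 tested markers had differences of -0.97 (Lyz2) to 0.41 (Cd14), 3 of them positive and 4 negative, with overlap at all 7. Without KO C1 and WT B1, but with WT A1 kept, the difference of Cxcr6 was -1.55, that of Ccr8 -1.04 and that of Ccr2 0.28. With 2 libraries a group the limma adjusted p of Cxcr6 was 0.229. The 7 B cell markers summed to between 582 and 793 TPM in KO and between 338.5 and 614 TPM in WT libraries, with Ms4a1 at 0 in every library and no called gene among the 3 tested. Igkc, an immunoglobulin chain gene, had every KO value above every WT value, at a difference of 1.49, and Cd79b and Ighm overlapped at 0.84 and 0.43. The 7 markers of CD8 T and NK cells summed to between 16.5 and 69.2 TPM in KO and between 25.9 and 46.7 TPM in WT libraries, and Cd8a, Klrb1c and Prf1 had 0.28, 0.70 and -1.06 with overlap. The 8 dendritic cell markers stayed at 10.9 TPM or less in sum, and the 5 tumour and epithelial markers at 24.6 TPM or less, with Krt8 and Krt19 at 0 in every library. Of their tested genes, Xcr1, Zbtb46, Epcam and Krt18 overlapped, the last 3 with differences of 0.03, 0.43 and -0.11. The part of other cells in the receptor values was not tested beyond these measurements.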

How the data were processed

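Treg cells had been sorted into lysis buffer in plates, and Nextera XT libraries were read as 75 bp pairs, per the labels' protocols. The tools listed per the submitters' processing notes are STAR, RSEM and limma, with no version, and the builds are GRCm38 and mm10. The authors deposited log2 values. With the log undone and 1 taken off, they sum to 1000000 in each library, so they are log2(TPM + 1). TPM keeps no counts, so no counting interval was computed, and a change in abundant transcripts shifts all others. All 55450 gene IDs matched GENCODE M21 (GRCm38), which gave coordinates and restored 27 symbols. No sample column was left unmapped. Strand was not stated, so overlapping genes cannot be separated.

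Genes with a log2 value of at least 1 in at least 3 of 6 libraries were tested (12155). Groups were compared with limma 3.58.1 (R 4.3.3; lmFit, eBayes with a mean-variance trend, no covariate), two-sided, with Benjamini-Hochberg adjustment over all tested genes and a threshold of 0.05. Differences are KO minus WT in log2(TPM + 1), which understates changes of low genes. Column names gave the group but no replicate number. The date mark, possibly a batch, was used as a block in a second fit. From each list, members past the threshold in either fit and up to 3 of smallest p were named, with the tested genes of the other receptors, of which 1 is not reported here. The receptors and lists were chosen with earlier results of these data known. On simulated data with 12155 genes, limma called 19.4% of genes changed by 1 log2 unit and 52.2% of those changed by 1.6, and 5.42% of its calls were false. The simulated noise was normal and independent between genes and libraries, with no date effect, and some genes were changed by 3 log2 units. The share of false calls in the real data was not measured. Tables and figures used Python 3.11.15, pandas 2.3.3 and matplotlib 3.10.9.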

Additional observations from a re-analysis of the deposited data

How the results depend on the processing

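Over 20 other settings, 2 of which read the same fit at another threshold, Cxcr6 stayed lower in KO, between -1.78 and -1.52, with adjusted p from 0.00135 to 0.229. Its difference was -1.64 but not called without the low-value filter (adjusted p = 0.153), without a variance trend (0.0805) or at a threshold of 0.01. Leaving out 1 library at a time gave -1.77 to -1.55 for Cxcr6 and 0 to 1 receptors called. Without WT B1 and KO C1, a setting chosen after seeing the data, Cxcr6 had -1.55 (adjusted p = 0.229) and 0 receptors were called. The count was also 0 without the filter, without the trend and at 0.01, 2 with the date block and without both dated libraries, and 4 with library weights. Ccr8 passed in limma with library weights (-0.90, adjusted p = 0.0495), the date block (-1.09, 0.0241) and no dated libraries (-1.11, 0.0445). With library weights, Cxcr3 (0.44, adjusted p = 0.0359) and Cxcr4 (0.74, 0.0203) also passed in limma.

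The dated pair alone, whose libraries also differed in Y-linked transcripts, gave 0.81 for Cxcr4, 0.62 for Cxcr5, 0.77 for Ccr2, 1.48 for Ccr4 and 2.02 for Ccr6. Uncalled values near 0 turned sign. Cxcr5 had -0.011 with quantile normalization, -0.11 with median centring, -0.022 with library weights and -0.27 without both dated libraries. Ccr2 had -0.025 with quantile normalization, -0.069 with median centring and -0.28 without both dated libraries. Leaving out 1 library gave -0.23 to 0.21 for Cxcr5, -0.30 to 0.32 for Ccr2 and -0.54 to 0.17 for Ccr7. It also gave 0.48 (without WT dated) to 1.09 (without WT A1) for Ccr4, and 0.27 (without WT dated) to 1.23 (without KO C1) for Ccr6, which had 0.42 without KO D. The cause was not tested. Median centring moved the median of all genes by -0.13.

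No paired analysis was possible because the columns carry no replicate number. Depth is unknown, so the counting error of values near 1 TPM, as for Cxcr5, could not be computed. Over all genes, 25 were called, against 240 with the date block, 949 with library weights, 4 without the trend, 38 with quantile normalization and 0 to 121 with 1 library left out.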
